A study of Mus musculus with 27 samples.

Results

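The clustered protocadherins are 58 of the 20156 genes in the expression tables. They were chosen by name: every gene whose symbol is Pcdha, Pcdhb, Pcdhga, Pcdhgb or Pcdhgc, with or without a further c for the alpha cluster, followed by a number. A combined Pcdha4-g entry did not match and was left out. All members lie on the plus strand of mouse chromosome 18 (build mm9). The alpha cluster (chr18:37089939-37347314) holds 14 members, of which 12 are numbered and 2, Pcdhac1 and Pcdhac2, are C-type. The beta cluster (chr18:37424652-37681073) holds 22 members. The gamma cluster (chr18:37821599-38001526) holds 19 A and B members, followed by the 3 C-type members Pcdhgc3, Pcdhgc4 and Pcdhgc5.

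Clustered protocadherins are cadherin-like adhesion molecules, best known in the nervous system, where single neurons express different combinations of them and use these to tell their own branches from those of other neurons. Each alpha or gamma transcript starts at the promoter of 1 variable exon, which is spliced to constant exons shared by the whole cluster, whereas each beta gene is a single exon. Choice among the promoters is known to involve DNA methylation, the insulator protein CTCF with the cohesin complex, and the silencing factors Setdb1 (an H3K9 methyltransferase) and Smchd1.

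The series holds 27 libraries of 3 cell types. Mouse embryonic fibroblasts (MEFs) came from E13.5 embryos that carried 1 copy of an Oct4-GFP transgene and of a Rosa26 allele, and were kept for at most 3 passages. Pre-iPSCs, an intermediate of reprogramming, and induced pluripotent stem cells (iPSCs) were both made from such MEFs with the 4 Yamanaka factors, delivered by retrovirus, and were kept for 6 passages. The labels of the first-replicate ChIP libraries, of all 3 cell types, name CBA/CaJ and C57BL/6J as the genetic background, and by the study's methods the mothers of the embryos were 129Sv/Jae mice. Mononucleosomes were released with micrococcal nuclease (MNase) and precipitated with antibodies to H3, H3K4me3, H3K27me3 or H3K9me3. H3K4me3 marks active promoters, H3K27me3 Polycomb-repressed genes and H3K9me3 heterochromatin. RNA, H3, H3K4me3 and H3K27me3 have 2 replicates per cell type, and H3K9me3 has 1 library per cell type. The pre-iPSCs and iPSCs come from a pair of stable clones and were grown on a feeder layer of MEFs, so fibroblast RNA and chromatin can enter those libraries. Which clone a library came from is not given in the sources used here. In such bulk samples, fewer cells of a type and less RNA per cell cannot be told apart. MEFs were digested with another amount of MNase for another time than the other cell types, so digestion and cell type cannot be told apart in comparisons with MEFs.

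Nucleosome calls held 67362868 to 108211816 reads in the H3 libraries and 12007350 to 15222040 in those of the marks. The labels were checked on marker genes fixed by name. The summed FPKM (fragments scaled to transcript length and library size) of 9 fibroblast markers was 4329 and 4274 in MEFs, 318 and 98.3 in the pre-iPSC libraries and 240 and 286 in the iPSC libraries. Of these 9, 7 fell in pre-iPSCs and in iPSCs against MEFs. Dcn, however, was at 30.2 and 40.5 FPKM in iPSCs, against 9.005 and 36.6 in MEFs. Lum was at 5.88 and 8.59 FPKM in iPSCs, against 0.348 and 5.84 in MEFs. Which cells the Dcn and Lum transcripts of the iPSC libraries came from was not tested. All 7 pluripotency markers rose in iPSCs against MEFs, 3 rose in pre-iPSCs against MEFs and 5 in iPSCs against pre-iPSCs. Their summed FPKM was 0.0233 and 0.904 in MEFs, 608 and 3522 in the pre-iPSC libraries and 1738 and 1959 in the iPSC libraries. The pre-iPSC replicates thus lay far apart in this sum, and pre-iPSC replicate 2 lay above both iPSC libraries. One H3 library stood apart. Over the gamma cluster, pre-iPSC replicate 1 held 0.583 RPKM of H3 (reads scaled to the length of the region in kilobases and to the library's unique reads), which was 3.14 times its median 10-kb bin, whereas pre-iPSC replicate 2 held 0.3297 RPKM, 1.05 times its median bin. iPSC replicate 1 leaned the same way, at 1.34 times its median bin against 0.974 in iPSC replicate 2. These H3 libraries touch only the H3 results and the ratios of marks to H3.

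Expression of the 3 clusters followed different courses. The alpha cluster was nearly silent throughout, and its 14 members summed to 0.0665 to 1.79 FPKM in the 6 libraries. The beta cluster summed to 5.46 and 3.91 FPKM in MEFs, then 3.94 and 2.19 in pre-iPSCs and then 0.246 and 0.354 in iPSCs. Thus both iPSC libraries lay below all 4 others. The gamma cluster summed to 100.01 and 83.2 FPKM in MEFs, then 58.3 and 30.8 in pre-iPSCs and then 42.1 and 33.2 in iPSCs, so all 4 later libraries lay below the MEFs and the pre-iPSC and iPSC libraries overlapped. Its subgroups differed. The A and B members summed to 42.0 and 60.8 FPKM in MEFs, 12.5 and 9.96 in the pre-iPSC libraries and 26.8 and 15.5 in the iPSC libraries. In this subgroup, unlike in the whole cluster, the pre-iPSC libraries were the lowest and the iPSC libraries lay between them and the MEFs. The 3 gamma C-type members summed to 58.0 and 22.4 FPKM in MEFs, then 45.9 and 20.8 in pre-iPSCs and then 15.3 and 17.7 in iPSCs. FPKM is a level per transcript length and can be compared between genes, but reads from constant exons belong to many alpha or gamma transcripts at once. The tables of replicates 1 and 2 were normalized separately, so the cell types are best compared within a replicate. Cuffdiff apportioned the shared reads, so the FPKM of a single alpha or gamma member or of a subgroup is less certain than a cluster's sum. The beta genes share no constant exons, although as paralogs they can share reads too.

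Pcdhgc3, a C-type gamma member, was the member with the highest FPKM in every library. Its level was 54.6 and 19.7 FPKM in MEFs, then 41.9 and 19.0 in pre-iPSCs and then 13.1 and 14.7 in iPSCs. It made up 22.2% to 67.1% of the summed FPKM of all members in a library. The iPSC libraries lay below the other 4, but the MEF replicates differed from each other by more than MEF replicate 2 differed from iPSCs. Pcdhgc5, another C-type member, stayed between 1.40 and 3.35 FPKM with overlapping groups. Pcdhgc4 did not pass 0.619 FPKM in any library. At 1 FPKM or more were 21 and 17 of the 58 members in MEFs, but 7 and 4 in pre-iPSCs and again 14 and 8 in iPSCs, most of them gamma members.

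**Figure D1:**
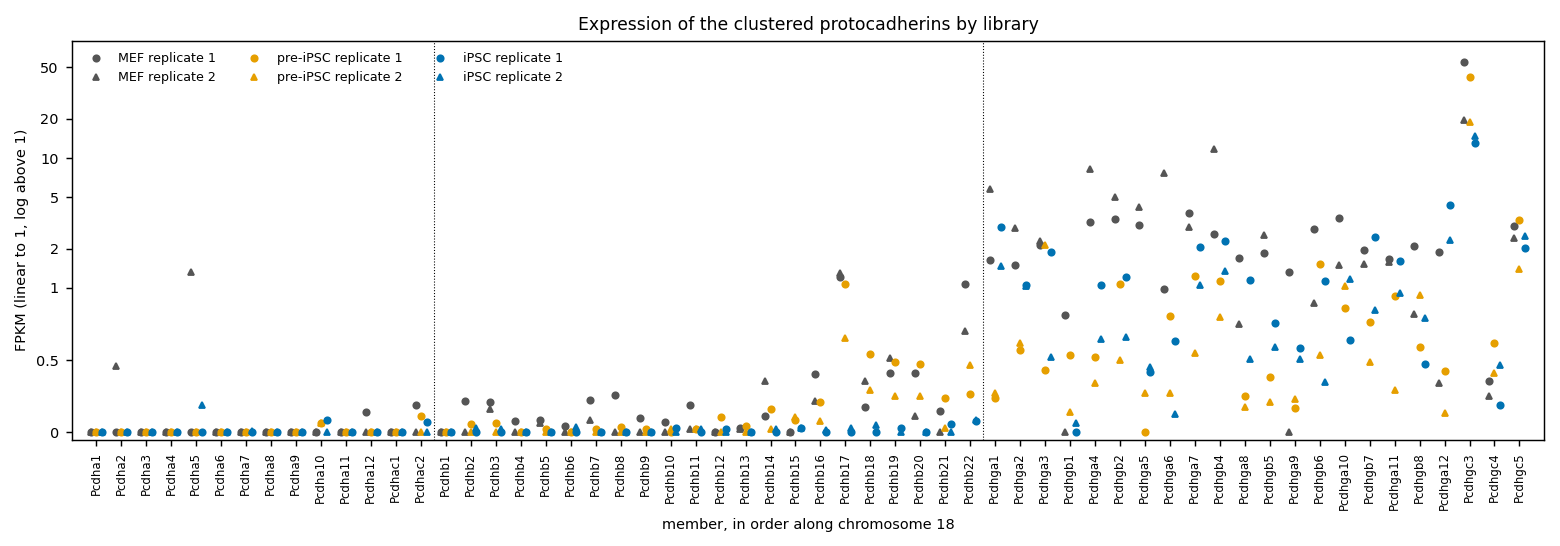
FPKM (linear up to 1, logarithmic above) of the 58 members in their order along the chromosome, with 1 symbol per library (circles, replicate 1; triangles, replicate 2) and dotted lines between the alpha, beta and gamma clusters. Most alpha and beta members stay below 0.5 FPKM, and Pcdhgc3 reaches 54.6 FPKM. In 14 of the 19 gamma A and B members both pre-iPSC libraries are lower than both MEF libraries, against 21.4% of all genes.

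Among the alpha members, Pcdha5 was listed at 1.33 FPKM in MEF replicate 2, at 0.191 in iPSC replicate 2 and at 0 in the other 4 libraries. Pcdha2 was listed at 0.459 FPKM in MEF replicate 2 and at 0 in the rest. These are values of single libraries. Pcdhac1, Pcdhb1 and 7 of the 12 numbered alpha members were listed at 0 in all 6 libraries. Among the beta members, Pcdhb17 had the highest mean level, with 1.22 and 1.29 FPKM in MEFs, 1.08 and 0.655 in the pre-iPSC libraries and 0 and 0.0267 in the iPSC libraries. Pcdhb22 had 1.07 and 0.705 FPKM in MEFs, then 0.263 and 0.468 in pre-iPSCs and then 0.0756 and 0.0858 in iPSCs, with no overlap between the cell types. Pcdhb19 had 0.414 and 0.512 FPKM in MEFs, 0.484 and 0.253 in the pre-iPSC libraries and 0.0321 and 0 in the iPSC libraries. For all 3 of these beta members, both iPSC libraries were the lowest.

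The comparison of pre-iPSCs with MEFs asks what changes in the first part of reprogramming. Of 20 members with a mean of at least 0.5 FPKM, 5 fell and 0 rose in pre-iPSCs against MEFs, by limma on log2(FPKM + 1) with the table of each replicate as a term (Benjamini-Hochberg adjusted p under 0.05 over 12401 genes, and a change of at least 1 on the log2 scale, a scale that understates the change of genes near 0). Of all genes tested, 16.4% passed this rule, 9% downward and 7.39% upward. The median change over the 20 was -0.81, against -0.04 over all genes tested, but the filter on low values let members in through the cell type where they were high, so neither that median nor the count speaks for the members not tested. The 5 were all gamma A or B members, which are variable-exon adhesion proteins. Pcdhga5 was at 3.08 and 4.22 FPKM in MEFs and at 0 and 0.274 in pre-iPSCs, a change of -2.03 ± 0.30 (SE) on the log2(FPKM + 1) scale (limma adjusted p = 0.00561). Pcdhga4 was at 3.24 and 8.21 FPKM in MEFs and at 0.524 and 0.344 in pre-iPSCs, a change of -2.13 ± 0.43 (limma adjusted p = 0.0166). For both, the MEF libraries lay far above the pre-iPSC libraries, with no overlap. Pcdhgb2 changed by -1.54 ± 0.37, Pcdhgb5 by -1.30 ± 0.31 and Pcdhga7 by -1.23 ± 0.33 (limma adjusted p = 0.0307, 0.0298 and 0.0445). With no filter on low values 0 of the 5 passed. Of 10 repeats with another setting or 1 library left out, Pcdhga5 kept its call in 9, Pcdhga4 in 8, Pcdhgb2 and Pcdhgb5 in 4 and Pcdhga7 in 2 (limma adjusted p up to 0.365 for Pcdhga7).

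Not all gamma members that were lower by value passed the test. Pcdhgb4 was at 2.62 and 11.8 FPKM in MEFs and 1.14 and 0.802 in pre-iPSCs, and its change of -1.79 ± 0.58 had a limma adjusted p of 0.0787. The spread between its MEF replicates was larger than the difference of MEF replicate 1 from the pre-iPSCs. Pcdhgc3 differed by -0.21 ± 0.45 and Pcdhgc5 by -0.20 ± 0.39 (limma adjusted p = 0.811 and 0.795). Over all 58 members, both pre-iPSC libraries lay below both MEF libraries for 20 members, among them 14 of the 19 gamma A and B members, where 21.4% of all genes did so. The exact permutation test of 2 against 2 libraries cannot give a p below 0.333, so it was not used for single members. The number of members called moved with the libraries used: it was 8 and 2 without MEF replicate 1 or 2, 3 and 1 without pre-iPSC replicate 1 or 2, and 2 without either iPSC replicate.

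From pre-iPSCs to iPSCs, the second part of reprogramming, 1 member rose and 0 fell, where 8.62% of all genes passed the rule, 3.91% upward and 4.71% downward. This was Pcdhga12, the last A-type variable exon before the C-type members. It was at 0.425 and 0.133 FPKM in pre-iPSCs and at 4.37 and 2.36 in iPSCs, a change of 1.74 ± 0.34 (SE, limma adjusted p = 0.0222). Both iPSC libraries lay above all others, since MEFs had 1.89 and 0.340 FPKM. In 11 members, all of them gamma A or B, both iPSC libraries lay above both pre-iPSC libraries, where 19.5% of all genes did so. They lay below them for 9 members, 7 of them beta, where 22.2% of all genes did. The call for Pcdhga12 was lost with no filter on low values, without pre-iPSC replicate 1, without iPSC replicate 1 and without iPSC replicate 2, and the count was 2 without either MEF replicate.

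Between MEFs and iPSCs, the ends of the process, 4 of the 20 members fell and 1 rose, where 25.9% of all genes passed the rule, 15.5% downward and 10.3% upward. This comparison uses the same MEF libraries as that of pre-iPSCs with MEFs. Pcdhga5 changed by -1.68 ± 0.30, Pcdhga4 by -1.76 ± 0.43 and Pcdhgb2 by -1.42 ± 0.37 (SE, limma adjusted p = 0.00799, 0.0243 and 0.0296). Pcdhb17, the only beta member tested, changed by -1.15 ± 0.29 (limma adjusted p = 0.0257). Pcdhga12 changed by 1.11 ± 0.34 (limma adjusted p = 0.0490), which is close to the threshold, and the call was lost in 8 of 10 repeats with another setting or 1 library left out (limma adjusted p up to 0.254). Pcdhgc3 did not pass, with a difference of -1.19 ± 0.45 (limma adjusted p = 0.0939). Both iPSC libraries lay below both MEF libraries for 23 of the 58 members, of which 11 were beta and 11 gamma A or B, where 25.2% of all genes did so. The number called was 1 with no filter on low values, 8 and 3 without MEF replicate 1 or 2, and 0 without either iPSC replicate.

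Other genes linked to these clusters gave the following levels. Of all genes tested, 10.3% rose and 15.5% fell in iPSCs against MEFs. These shares were 7.39% and 9% in pre-iPSCs against MEFs, and 3.91% and 4.71% in iPSCs against pre-iPSCs. Non-clustered protocadherins, adhesion proteins encoded elsewhere, summed over 12 genes to 53.2 and 35.8 FPKM in MEFs, then 7.97 and 2.94 in pre-iPSCs and then 3.88 and 7.44 in iPSCs. Of the 6 tested, Pcdh19, Pcdh18, Pcdh9 and Pcdh7 fell in pre-iPSCs and in iPSCs against MEFs, and 0 changed between pre-iPSCs and iPSCs (limma, with 1 at an unadjusted p under 0.05). By limma 0 of 10 genes for CTCF and cohesin passed in any comparison (0 at an unadjusted p under 0.05 as well). Of 9 silencing factors, 6 rose in iPSCs against MEFs. Among these 6, the de novo methyltransferase gene Dnmt3b was at 0.546 and 0.317 FPKM in MEFs, then 15.6 and 1.63 in pre-iPSCs and then 40.9 and 45.7 in iPSCs. Its cofactor gene Dnmt3l was at 83.7 and 67.8 FPKM in iPSCs and no higher than 0.0511 elsewhere. Setdb1 differed by 1.09 ± 0.46 and Smchd1 by 0.36 ± 0.50 between iPSCs and MEFs, and neither passed (limma adjusted p = 0.122 and 0.638). Of 4 neural markers tested, Pax6 and Sox1 rose and Nes fell in iPSCs against MEFs. Taf7 and Dnd1 were the 2 of 10 tested neighbouring genes that rose in iPSCs against MEFs. The part of fibroblast, neural or neighbouring signal in the members' values was not tested.

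The promoters of the members differ in base composition, which bears on how MNase and ChIP libraries read them. Within 1000 bp of the start site, the median GC content was 43.1% over the members and 51.8% over all genes. The ratio of observed to expected CpG was 0.491 and 0.502. Beta promoters were the poorest in CpG, with a median ratio of 0.338, while numbered alpha promoters had 0.635 and gamma A and B promoters 0.514. Pcdhgc3 stood out among gamma members with 119 CpG and a ratio of 0.835, against 33 CpG and 0.252 at Pcdhgc5.

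By the mean over replicates, the members with the most H3K4me3 were the 3 gamma C-type promoters and Pcdhac2 in MEFs, and Pcdhgc3, Pcdhgc4 and Pcdhac2 in pre-iPSCs and iPSCs. The 3 gamma C-type promoters had a median of 2.03 and 1.18 RPKM in MEFs, 1.349 and 0.942 in the pre-iPSC libraries and 1.30 and 0.954 in the iPSC libraries. This was above the median of all promoters, 0.812 to 1.22 RPKM, in each library when compared within it. At Pcdhgc3 the level was 2.10 and 1.46 RPKM in MEFs, then 1.349 and 0.942 in pre-iPSCs and then 1.37 and 0.954 in iPSCs, so the lowest MEF library was above the highest of the others. The median of all promoters was also highest in MEFs, and with TMM scaling Pcdhgc3 differed by -0.27 ± 0.25 between iPSCs and MEFs and by -0.25 ± 0.25 between pre-iPSCs and MEFs, and did not pass (SE on the log2 scale, edgeR adjusted p = 0.487 and 0.612). Pcdhgc4 had 2.03 and 1.18 RPKM in MEFs, 1.502 and 0.974 in the pre-iPSC libraries and 1.30 and 1.09 in the iPSC libraries, although its FPKM was below 1 throughout. Pcdhgc5 had 1.46 and 1.15 RPKM in MEFs, then 0.828 and 0.552 in pre-iPSCs and then 0.807 and 0.921 in iPSCs, and in these last 2 cell types its mean was below that of some gamma A and B promoters. Pcdhac2, the alpha C-type member next to the constant exons, had 1.79 and 1.08 RPKM in MEFs, then 0.736 and 0.909 in pre-iPSCs and then 1.61 and 1.12 in iPSCs, and was likewise below 1 FPKM. The other alpha C-type member, Pcdhac1, had 0.779 and 0.414 RPKM in MEFs, 0.460 and 0.357 in the pre-iPSC libraries and 0.590 and 0.757 in the iPSC libraries, below the median of all promoters in each library. The remaining classes of promoter had lower medians than the gamma C-type members. The library medians were 0.227 to 0.429 RPKM for numbered alpha, 0.308 to 0.559 for beta and 0.487 to 0.764 for gamma A and B promoters.

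Few differences in H3K4me3 between cell types passed the test. By edgeR's quasi-likelihood test with Benjamini-Hochberg adjustment, 0 of 52 member promoters with enough reads passed in pre-iPSCs against MEFs, where 3.79% of all promoters did (2.96% upward and 0.831% downward), and 0 passed in iPSCs against pre-iPSCs, where 0% did. At an unadjusted p under 0.05 these counts were 1 and 4, where 19.7% and 8.97% of all promoters were under that p, and DESeq2 called 0 in both, giving 17 of the 52 no adjusted p in the former. In iPSCs against MEFs 1 rose, where 13.8% of all promoters passed, 9.58% upward and 4.22% downward. This was Pcdhb1, the first beta gene, with 11 and 11 reads in MEFs, 19 and 17 in the pre-iPSC libraries and 24 and 23 in the iPSC libraries, a change of 1.38 ± 0.39 (SE, edgeR adjusted p = 0.0150). Pcdhb1 was listed at 0 FPKM in every library. The call for Pcdhb1 rests on few reads and was lost with DESeq2, with the total of unique reads in place of TMM scaling, with a window of 500 bp, and without MEF replicate 1 or either iPSC replicate. The count was 2 without MEF replicate 2.

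H3K27me3 was higher over most of these promoters in iPSCs than in MEFs. Across the 58 members, the median level within 1000 bp of the start site was 0.242 and 0.265 RPKM in MEFs, then 0.281 and 0.244 in pre-iPSCs and then 0.403 and 0.477 in iPSCs. The median of all promoters was also higher in iPSCs, at 0.259 and 0.239 RPKM, than in MEFs, at 0.182 and 0.212. In pre-iPSCs that median was 0.225 and 0.214 RPKM. The highest value of any member in any library was 0.835 RPKM, at Pcdha10 in iPSC replicate 2, so no member promoter reached 1 RPKM. Both iPSC libraries lay above both MEF libraries for 41 of the 58 members, where 30.8% of all promoters did so, and below them for 0, where 16.6% did. Against pre-iPSCs, both iPSC libraries lay higher for 34 members, where 22.5% of all promoters did.

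By edgeR's quasi-likelihood test, 12 of 48 promoters with enough reads rose and 0 fell in iPSCs against MEFs, where 11.2% of all promoters passed, 7.36% upward and 3.88% downward. The filter on low counts let promoters in through the cell type where they were high, so this count does not speak for the 10 members not tested. The gamma C-type promoters were 3 of the 12. Pcdhgc3 had 1 and 3 reads in MEFs, 6 and 6 in the pre-iPSC libraries and 11 and 17 in the iPSC libraries, a change of 2.73 ± 0.66 (SE on the log2 scale, edgeR adjusted p = 0.00303). Pcdhgc5 had 1 and 4 reads in MEFs, then 12 and 10 in pre-iPSCs and then 13 and 16 in iPSCs, a change of 2.48 ± 0.59 (edgeR adjusted p = 0.00264). Both held fewer reads in each MEF library than in any other library. Pcdhgc4 changed by 1.52 ± 0.47 (edgeR adjusted p = 0.0218). With under 5 reads in each MEF library, the size of these first 2 changes is poorly fixed. With another setting or 1 library left out, the call was kept in 8 of 10 repeats for Pcdhgc3. It was kept in 9 of 11 for Pcdhgc5 and 5 of 12 for Pcdhgc4.

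The other 9 promoters that rose were spread over the clusters. Pcdhb12 had 6 and 6 reads in MEFs, 10 and 8 in the pre-iPSC libraries and 20 and 26 in the iPSC libraries, a change of 1.92 ± 0.43 (edgeR adjusted p = 0.00127), and the iPSC libraries did not overlap the rest. The beta members Pcdhb19 and Pcdhb16 rose by 1.57 and 1.26 on the log2 scale. The alpha members Pcdha5, Pcdha4 and Pcdha10 rose by 1.56, 1.29 and 1.20. The gamma A and B members Pcdhga5, Pcdhga12 and Pcdhgb1 rose by 1.49, 1.40 and 1.38. Of 12 repeats, Pcdhb12 kept its call in 11, Pcdhb19 in 8, Pcdhb16 and Pcdha4 in 6 and Pcdha10 in 4. Pcdhga5, Pcdhga12 and Pcdhgb1 each kept it in 5 of 12 and Pcdha5 in 5 of 11. The highest mean levels over all libraries belonged to promoters that did not all change: Pcdhac2 had 0.818 and 0.397 RPKM in MEFs and 0.605 and 0.358 in iPSCs, Pcdhac1 had 0.333 and 0.503 in MEFs and 0.605 and 0.776 in iPSCs, and Pcdhb16 had 0.273 and 0.265 in MEFs and 0.634 and 0.716 in iPSCs. DESeq2 called 0 of the 48, giving 3 of them no adjusted p. The count was 4 with no filter on low counts, 3 with nucleosome calls of at least 2 reads and 0 within 500 bp of the start site, where 2 members had enough reads. It was 2 and 3 without MEF replicate 1 or 2 and 5 and 3 without iPSC replicate 1 or 2.

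**Figure D2:**
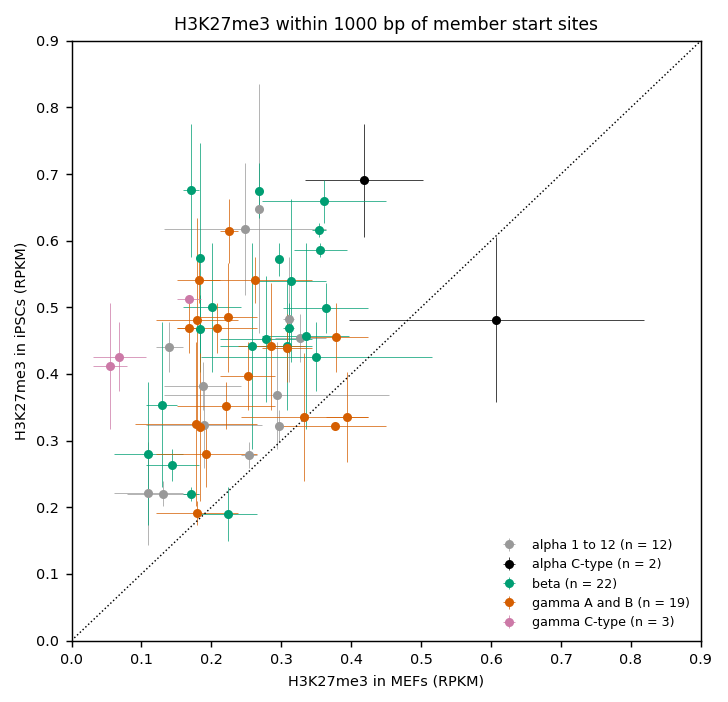
H3K27me3 within 1000 bp of the start site (RPKM) in MEFs (x axis) and iPSCs (y axis) for the 58 members. Points are the mean of 2 libraries, lines run from the lower to the higher library, and the diagonal of equal levels is dotted. Most points lie above the diagonal, and the 3 gamma C-type promoters are low in MEFs, with Pcdhgc3 at 0.0549 RPKM in MEFs and 0.412 RPKM in iPSCs.

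Between pre-iPSCs and MEFs 1 member promoter passed. Pcdhgc5 rose by 2.13 ± 0.63 (edgeR adjusted p = 0.0214), where 8.22% of all promoters passed, 5.1% upward and 3.11% downward. DESeq2 called 0 and gave no adjusted p to 18 of the 48, this one among them, and the call was lost without MEF replicate 1, pre-iPSC replicate 1 or pre-iPSC replicate 2. Between iPSCs and pre-iPSCs 0 of 48 passed with edgeR and 0 with DESeq2, where 0.807% of all promoters passed with edgeR, 0.673% upward and 0.135% downward. At an unadjusted p under 0.05 the count was 21 of 48, all of them higher in iPSCs, where 11.4% of all promoters were under that p, 6.98% upward. The number passing the adjusted threshold was 1 without either MEF replicate.

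The test was repeated in 10-kb bins, which hold more reads than promoters. Of 92 tested bins from Pcdha1 to the end of the gamma cluster, 41 rose and 0 fell in iPSCs against MEFs, where 11.9% of all bins passed, 8.8% upward and 3.12% downward (edgeR's quasi-likelihood test with Benjamini-Hochberg adjustment). These were 7 of 26 alpha bins, 17 of 25 beta bins, 11 of 15 gamma A and B bins and 3 of 3 bins over the gamma C-type members and constant exons. The remaining 3 were 1 of 7 between alpha and beta, 1 of 14 between beta and gamma, and 1 of 2 at the edges. Bins were assigned by their centres, so the last bin counted as gamma A and B holds the start site of Pcdhgc3. The median change over the 92 bins was 0.69 on the log2 scale, against 0.00 over all bins, and 86 of the 92 were above 0. The 7 alpha bins called had their centres within 85.1 kb of the start of Pcdha1, and of the 6 bins below 0, 4 lay in the later part of the alpha cluster. The count was 10 with DESeq2, 20 without MEF replicate 1, and 21 and 23 without iPSC replicate 1 or 2.

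By level, the gamma C-type end of the locus moved most. It held 0.104 and 0.123 RPKM of H3K27me3 in MEFs, then 0.230 and 0.207 in pre-iPSCs and then 0.398 and 0.375 in iPSCs, with no overlap between any 2 cell types. Among all bins of the genome its mean stood at percentiles 8.10 and 11.1 in MEFs, 33.6 and 29.9 in the pre-iPSC libraries and 73.2 and 66.9 in the iPSC libraries. Set against bins of the same GC content, it held 0.276 and 0.253 times their level in MEFs and 0.757 and 0.754 times in iPSCs. The gamma A and B region held 0.240 and 0.288 RPKM in MEFs, then 0.298 and 0.267 in pre-iPSCs and then 0.419 and 0.436 in iPSCs. The beta cluster held 0.211 and 0.213 RPKM in MEFs, 0.234 and 0.214 in the pre-iPSC libraries and 0.326 and 0.369 in the iPSC libraries. In both of these regions the iPSC libraries were apart from the other 4, which lay close together. The alpha cluster held 0.296 and 0.256 RPKM in MEFs, then 0.260 and 0.235 in pre-iPSCs and then 0.347 and 0.358 in iPSCs.

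Pre-iPSCs and MEFs differed in 3 of the 92 bins, all higher in pre-iPSCs, where 13% of all bins passed, 9.68% upward and 3.3% downward. They were 2 of the 3 bins over the gamma C-type members and constant exons, and the edge bin just after them. In iPSCs against pre-iPSCs 4 bins rose, 2 alpha, 1 beta and 1 gamma C-type, where 0.112% of all bins passed, 0.0712% upward and 0.0407% downward. The former count was 1 with DESeq2 and 1 without pre-iPSC replicate 1. The latter was 0 with DESeq2, 0 without either pre-iPSC replicate or iPSC replicate 1, and 2 without iPSC replicate 2.

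**Figure D3:**
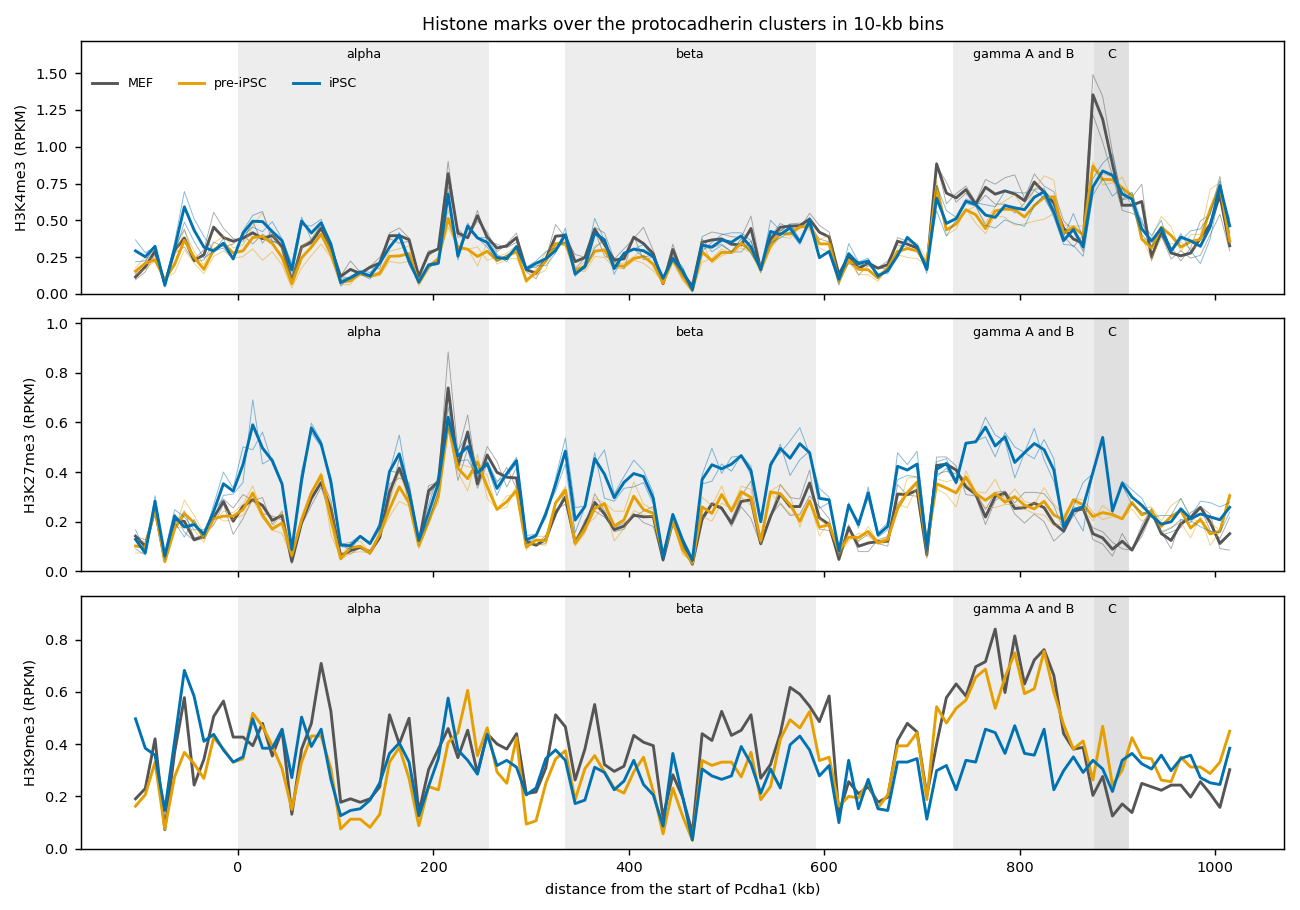
H3K4me3, H3K27me3 and H3K9me3 (RPKM) in 10-kb bins against the distance from the start of Pcdha1 (kb), with thick lines for the mean of each cell type, thin lines for single libraries and shading over the clusters (C, gamma C-type members and constant exons). H3K4me3 peaks over the gamma C-type members, H3K27me3 is higher in iPSCs over most of the locus, and the H3K9me3 plateau over gamma A and B in MEFs and pre-iPSCs is lower in the iPSC library.

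The same bins showed where H3K4me3 lies. Over the gamma C-type end it was 1.15 and 0.939 RPKM in MEFs, 0.818 and 0.815 in the pre-iPSC libraries and 0.748 and 0.850 in the iPSC libraries, at percentiles 97.6 to 99.3 of all bins. The gamma A and B region, though the median of its promoters was below that of all promoters in each library, lay at 0.484 to 0.661 RPKM and percentiles 83.2 to 96.9 of all bins. Thus both regions of the gamma cluster, by their level over the region, were richer in H3K4me3 than most bins of the genome, in all 3 cell types. These levels do not speak for each single bin.

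H3K9me3 was highest over the gamma A and B members, and there the iPSC library was the lowest. With 1 library per cell type there is no replicate and no test, so intervals are exact Poisson intervals (95%) that cover counting error only. The region held 0.609 RPKM (0.577 to 0.643) in the MEF library, 0.572 (0.542 to 0.604) in that of pre-iPSCs and 0.358 (0.334 to 0.384) in that of iPSCs. Among all bins of the genome this was percentile 98.0 in MEFs, 97.6 in the pre-iPSC library and 64.6 in the iPSC library. Relative to bins of the same GC content the level was 1.69, 1.47 and 0.971 times. Of 15 bins in the region, 6 in MEFs and 5 in pre-iPSCs exceeded the 99th percentile of all bins of their library, and 0 did in iPSCs.

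Between iPSCs and MEFs, the other segments differed less. The beta cluster held 0.387 RPKM of H3K9me3 in MEFs, 0.291 in the pre-iPSC library and 0.271 in the iPSC library, so there the pre-iPSC library was nearer to iPSCs. The alpha cluster held 0.367, 0.305 and 0.332 RPKM. The gamma C-type end went the other way, with 0.196 RPKM (0.161 to 0.237) in MEFs, 0.326 (0.280 to 0.376) in the pre-iPSC library and 0.291 (0.247 to 0.341) in the iPSC library. In MEFs the level was already lower in some of the last bins before the gamma C-type members. It was 0.440 RPKM at 845 kb from the start of Pcdha1 and 0.387 at 865 kb, against 0.663 at 835 kb.

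The gamma A and B promoters repeated the pattern of their region. Their median was 0.689 RPKM in MEFs, 0.624 in the pre-iPSC library and 0.298 in the iPSC library, at percentiles 97.5, 97.4 and 57.1 of all promoters. A promoter was counted if it had at least 10 reads in either library, so many entered through the library where they were high, and the counts do not speak for the other members. By this rule, 32 of 51 were at least 1.5-fold lower in iPSCs than in MEFs, where 18.6% of all such promoters were, and 2 were at least 1.5-fold higher, where 37.3% were. These 32 included 18 of 19 gamma A and B and 10 of 18 beta promoters. Against pre-iPSCs, 30 of 49 were lower in iPSCs, where 15.5% of all promoters were, among them 14 of 19 gamma A and B promoters. In the other direction 6 of the 49 were higher in iPSCs, 5 of them beta. Between pre-iPSCs and MEFs, 13 of 50 were lower, near the 24.5% of all promoters, and 2 were higher. In 10-kb bins, 28 of 92 were at least 1.5-fold lower in iPSCs than in MEFs, where 13.1% of all bins were, and 11 of these were among the 15 gamma A and B bins. By the same rule 5 of the 92 were higher. The share of all bins that were higher was not computed. Nor was the share of all promoters higher in iPSCs than in pre-iPSCs, or in pre-iPSCs than in MEFs. Without these shares, the matching counts cannot be called many or few.

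The highest mean levels belonged to Pcdhga11, with 28 reads in MEFs, 27 in the pre-iPSC library and 13 in the iPSC library, to Pcdhga4, with 23, 26 and 13 reads, and to Pcdhb19, with 15, 23 and 22 reads. The first 2 were lower in iPSCs, and the beta member was not. Of the 20 members tested in expression, only Pcdhga12 was called higher in iPSCs. At 11 of all 58 members both iPSC libraries lay above both pre-iPSC libraries, near the 19.5% of all genes that did so. Pcdhga12 had 21 H3K9me3 reads in MEFs, 20 in the pre-iPSC library and 3 in the iPSC library. That is 0.689 RPKM (0.426 to 1.05), 0.624 (0.381 to 0.963) and 0.0993 (0.0205 to 0.290), and the iPSC interval does not overlap the other 2. It had the lowest iPSC level of H3K9me3 of all 58 members. Only at Pcdhga1, with 27 reads in MEFs, 15 in the pre-iPSC library and 5 in the iPSC library, were the iPSC and MEF intervals likewise apart, a member singled out after its values were seen. At the other promoters these intervals overlapped. The iPSC level of Pcdhga12 rests on 3 reads in 1 library, and a link between its H3K9me3 and its expression was not tested. As a group, the gamma A and B members had their highest summed FPKM in MEFs, at 42.0 and 60.8. Their median H3K9me3 was also highest there.

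**Figure D4:**
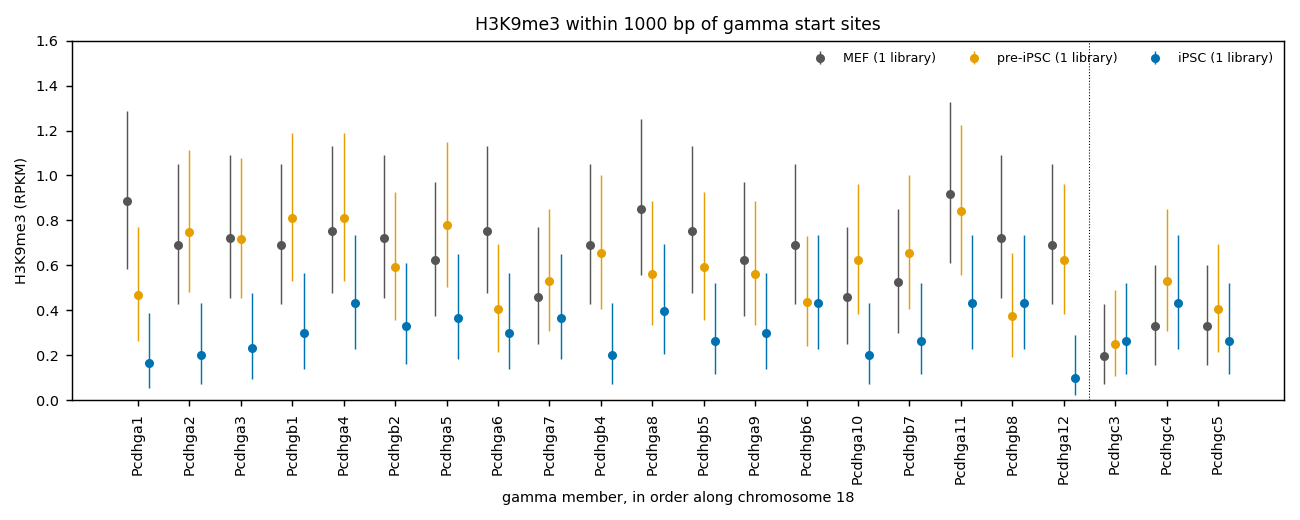
H3K9me3 within 1000 bp of the start site (RPKM) of each gamma member in order along the chromosome, with 1 library per cell type, exact Poisson intervals (95%) as lines and a dotted line before the C-type members. Of the gamma A and B members, 18 of 19 are at least 1.5-fold lower in iPSCs than in MEFs. Of all promoters with at least 10 reads in either library, 18.6% are. Pcdhga12 is the lowest in iPSCs at 0.0993 RPKM, while Pcdhgc3 has 0.197 RPKM in MEFs and 0.265 in iPSCs.

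Around the start sites of gamma A and B members, the mean of H3K9me3 within 1000 bp was 0.696 RPKM in MEFs, 0.621 in the pre-iPSC library and 0.300 in the iPSC library, and at 3000 to 5000 bp from the start site it was 0.651, 0.618 and 0.344. The iPSC library was thus lower both at the promoters and between them. In the 200 bp just before the start site, a step with few reads, the level was 0.829 RPKM in MEFs, 0.509 in the pre-iPSC library and 0.122 in the iPSC library. Since gamma start sites lie a few kilobases apart, the outer windows of one member hold its neighbours. H3K27me3 over gamma A and B members was no higher within 1000 bp of the start site in iPSCs, with 0.411 and 0.410 RPKM there and 0.459 and 0.461 farther out. In each library, H3K4me3 over the 3 gamma C-type members had a higher mean within 1000 bp than at 3000 to 5000 bp. In MEFs it was 1.86 and 1.26 RPKM near and 1.12 and 0.908 farther out. In iPSCs these values were 1.16 and 0.987 near and 0.605 and 0.839 farther out. The highest 200-bp step, however, lay at 2700 and 2900 bp after the start site in MEFs. It lay at 100 and 1900 bp in pre-iPSCs and at 2100 and 3900 bp in iPSCs.

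**Figure D5:**
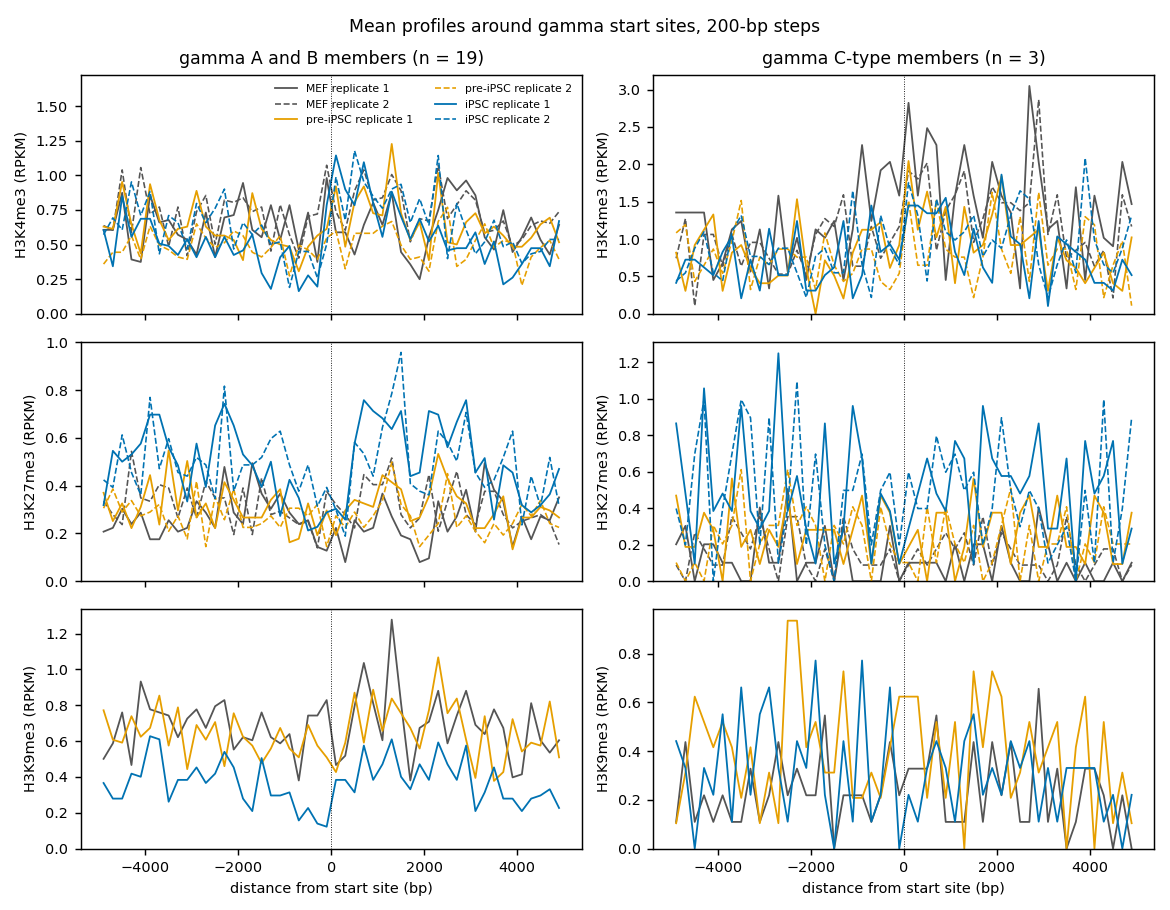
Mean RPKM of H3K4me3, H3K27me3 and H3K9me3 in 200-bp steps up to 5000 bp either side of the start sites of the 19 gamma A and B members (left) and the 3 gamma C-type members (right), with 1 line per library. On the left, H3K9me3 is lower in the iPSC library both near the start site (0.300 RPKM within 1000 bp against 0.696 in MEFs) and at 3000 to 5000 bp. On the right, mean H3K4me3 is higher within 1000 bp than at 3000 to 5000 bp. Its highest step lies after the start site in each library.

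No difference in H3 passed the test at a member promoter. By edgeR's quasi-likelihood test 0 of 58 passed in each of the 3 comparisons, where 0% of all promoters passed, and DESeq2 called 0. At an unadjusted p under 0.05 there were 2 in pre-iPSCs against MEFs, 3 between iPSCs and pre-iPSCs and 1 between iPSCs and MEFs, where 1.88%, 0.547% and 1.54% of all promoters were under that p. Both iPSC libraries lay below both MEF libraries at 24 members, where 9.36% of all promoters did so, and above them at 9, where 43% did. Beta promoters, for example, had a median of 0.327 and 0.360 RPKM in MEFs, then 0.181 and 0.281 in pre-iPSCs and then 0.268 and 0.289 in iPSCs. The pre-iPSC replicates were far apart at the alpha C-type promoters, with medians of 1.22 and 0.276 RPKM, at the gamma C-type promoters, with 0.958 and 0.331 RPKM, and at gamma A and B promoters, with 0.777 and 0.314 RPKM. Pcdhac1, Pcdhgc5 and Pcdhb1, the members with the highest mean H3, had 1.30, 1.27 and 0.854 RPKM in pre-iPSC replicate 1 and 0.171 to 0.496 RPKM in the other 5 libraries. With the deviating pre-iPSC replicate 1 left alone in its group, that is without pre-iPSC replicate 2, 2 members were higher and 28 lower in pre-iPSCs than in MEFs, and 9 higher in iPSCs than in pre-iPSCs. In that fit 5.94%, 17.4% and 10.5% of all promoters passed in these directions, and the lone library is assumed to vary like the other groups. Without replicate 1 instead, 0 passed in either comparison.

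Some members were seen in several measures. Pcdhgc3 had 0.197 RPKM of H3K9me3 at its promoter in MEFs, which is the median of all promoters in that library, had H3K4me3 above the median of all promoters, and was the member with the highest FPKM in each cell type. In iPSCs its promoter carried more H3K27me3 than in MEFs, 0.412 ± 0.135 against 0.0549 ± 0.0348 RPKM (mean ± SD, n = 2), at 13.1 and 14.7 FPKM. Pcdhga5 fell in expression from MEFs to pre-iPSCs and was at 0.421 and 0.452 FPKM in iPSCs. Its H3K9me3 reads numbered 19 in MEFs, 25 in the pre-iPSC library and 11 in the iPSC library. The H3K27me3 of Pcdhga5 rose in iPSCs against MEFs, a call kept in 5 of 12 repeats. Pcdhga12 passed in expression and in H3K27me3 in iPSCs against MEFs, but kept these calls in only 2 of 10 and 5 of 12 repeats (adjusted p up to 0.254 by limma and up to 0.592 among the H3K27me3 repeats, by DESeq2), with H3K27me3 reads of 5 and 7 in MEFs, then 10 and 6 in pre-iPSCs and then 15 and 17 in iPSCs. Pcdhb17 fell in expression in iPSCs against MEFs, with 12 and 10 H3K27me3 reads in MEFs and 23 and 14 in iPSCs, a difference that did not pass the test.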

How the data were processed

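RNA-seq and MNase ChIP-seq of mouse MEFs, pre-iPSCs and iPSCs were analysed from the processed tables. The authors mapped ChIP reads to mm9 with Bowtie 1.0.1, kept unique reads and called nucleosomes with GeneTrack, and the deposited read counts per call were summed within 1000 bp of start sites and in 10-kb bins. The authors mapped RNA reads with TopHat2 2.0.4 and computed FPKM with Cuffdiff (Cufflinks 2.0.2), separately for each replicate's table, whose deposited q-values and fold changes were not used. RPKM here is reads in calls scaled to kilobases and to the library's unique reads, with totals from the study's tables. FPKM was tested by limma 3.58.1 on log2(FPKM + 1), filtered at a mean of 0.5. Counts were tested by edgeR 4.0.16 with TMM scaling and filterByExpr, with DESeq2 1.42.0 as an alternative. Tests were checked on simulated data. Members and gene lists were chosen with earlier results of these data known. Members were named if C-type, among the 3 with the highest mean FPKM in their cluster, called in expression, or, for each mark, among the 3 highest in mean promoter level or the 3 called with the largest change. The other called promoters, Pcdha10's highest value and Pcdhga1 were added after the values were seen. The study calls its replicates biological and names 2 clones of pre-iPSCs with their iPSCs, but the labels tie no library to a clone, so p-values measure the spread between these libraries. No sequences are printed here.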

Additional observations from a re-analysis of the deposited data

How the results depend on the processing

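Replicates and depth were both small: there were 2 libraries per group, member promoters held a median of 8 to 16 H3K27me3 reads per library, and H3K9me3 had 1 library per cell type. The numbers of members called in expression (5 in pre-iPSCs against MEFs, 1 in iPSCs against pre-iPSCs, 5 in iPSCs against MEFs) became 0, 0 and 1 with no filter on low values, and 2 for iPSCs against pre-iPSCs with a pseudocount of 0.1. Leaving out 1 library at a time gave 1 to 8, 0 to 2 and 0 to 8. For H3 (0 called) these ranges were 0 to 30 in pre-iPSCs against MEFs and 0 to 9 in iPSCs against pre-iPSCs. For H3K4me3 in iPSCs against MEFs (1 called) the count was 0 with DESeq2, with unique reads and no TMM, and within 500 bp, and 0 to 2 with 1 library left out. For H3K27me3 at promoters, pre-iPSCs against MEFs (1 called) gave 0 with DESeq2, within 500 bp and with calls of at least 2 reads, and 0 to 1 with 1 library left out; iPSCs against pre-iPSCs (0 called) gave 0 to 1. In iPSCs against MEFs (12 called) the count was 0 with DESeq2, 4 with no filter on low counts, 0 within 500 bp, where only 2 members had enough reads, 3 with calls of at least 2 reads, and 2 to 11 with 1 library left out. For H3K27me3 in bins, DESeq2 gave 1, 0 and 10 in place of 3, 4 and 41, and leaving out 1 library gave 1 to 4, 0 to 6 and 20 to 36. In iPSCs against pre-iPSCs, unique reads with no TMM gave 7 and a correction for GC content, chosen after seeing the data, gave 8. Over the alpha cluster, the log2 ratio of H3K4me3 between iPSCs and MEFs was -0.05, against 0.12 relative to H3 and 0.043 relative to bins of the same GC content, and that of H3K9me3 was -0.14, against 0.074 relative to H3. The cause of these differences between settings was not tested, except that fewer reads or libraries entered some of the fits. No call of a single member changed direction in these repeats: 151 repeats kept the call and 121 lost it.

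The labels do not say that libraries of the same replicate number belong together, although in H3 the same-numbered pre-iPSC and iPSC libraries deviated alike. The correlation of same-numbered libraries' deviations from their group means was 0.346, 0.112 and -0.205 for expression, and between pre-iPSCs and iPSCs it was 0.795 for H3, 0.115 for H3K4me3 and 0.168 for the H3K27me3 bins. For the H3K27me3 bins it was -0.139 between MEFs and iPSCs. The remaining pairs of cell types for these marks, and all 3 pairs for H3K27me3 promoters, were below 0.1 in size. With a replicate block the H3 promoters called stayed at 0 in all 3 comparisons. With a replicate block the H3K27me3 bins called were 2, 2 and 39 in place of 3, 4 and 41, and the H3K27me3 promoters called stayed at 1, 0 and 12. In expression, where the term for the 2 separately normalized tables is also a replicate block, 5, 1 and 4 members were called without the block.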
